A study of Bos taurus with 15 samples.

Results

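The genes described here carry out or direct the removal of mRNA in bovine oocytes: the deadenylases and their adaptors, the poly(A)-binding proteins, the decapping enzymes, the exonucleases and the RNA exosome. They were picked by a pattern of gene symbols, set with earlier results of these data known. Of the 24616 genes in the deposited table, 47 matched. By role, 11 were subunits of the CCR4-NOT deadenylase, 3 belonged to the deadenylases PAN2-PAN3 and PARN, and 5 were poly(A)-binding proteins. Another 7 acted in decapping and decay from the capped end, and 9 were exosome proteins. The rest were 6 BTG and TOB adaptors, 3 ZFP36 proteins and 3 YTHDF readers. Of the 47 genes, 41 had enough counts to be tested, out of 8441 genes tested in all. BTG2, BTG3, DCP1B, EXOSC5, PABPC5 and ZFP36L2 did not.

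RNA sequencing had been done on oocytes labelled as matured in vitro, with 15 libraries in 5 groups of 3. One group was fresh, and the other 4 had been vitrified, that is, cooled in a concentrated cryoprotectant to a glass without ice. The groups helium 5.6 M and helium 6.6 M were cooled in liquid helium, and the groups nitrogen 5.6 M and nitrogen 6.6 M in liquid nitrogen, each at the molar concentration of cryoprotective agent in its name. All groups shared the maturation medium and the removal of cumulus cells with hyaluronidase. The design text of the series calls the oocytes immature, whereas each library's label says matured in vitro, and the order of maturation and vitrification is not given in the sources used here. The labels give no strain, age or genotype, and they speak of extraction from single cells without giving the number of oocytes in a library or saying whether replicates came from separate animals or cultures. P-values therefore rest on the spread of single libraries within a group, part of which may be technical.

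A growing oocyte stores a large pool of mRNA and is nearly silent in transcription when it matures, so changes in its mRNA come mostly from decay and from changes in tail length. The tail is shortened mainly by CCR4-NOT, which adaptors such as BTG4, the ZFP36 proteins and the YTHDF readers bring to chosen transcripts. Deadenylated mRNA is then decapped by DCP2 and degraded by XRN1, or degraded from its tail end by the exosome.

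Library totals ran from 1601519 to 8569618 counts, and depth went with coolant. The 6 helium libraries held 6346848 counts or more, the fresh libraries 2822837 or fewer, and among the nitrogen libraries only nitrogen 6.6 M library 3 was as deep, with 7392972. Depth and helium therefore cannot be told apart in a comparison of helium with fresh. Of 14 oocyte markers, 12 were in the table, all were tested, and their summed level went with coolant too. It was 8383 to 10527 CPM (counts scaled to a fixed library total) in helium, 6155 to 8545 in nitrogen, and 5276, 10413 and 6044 in fresh libraries 1, 2 and 3. The share of counts on mitochondrial genes was 2.79% to 4.21% in helium, 2.41% to 6.29% in nitrogen and 4.14% to 8.66% in fresh. The 21 cumulus and granulosa markers summed to 370 to 667 CPM, with the follicle-stimulating hormone receptor gene FSHR at 0 in all libraries and the highest sum in helium 6.6 M library 2. The blood and immune markers summed to 1.42 to 18.5 CPM, with HBB, CD14 and TYROBP at 0 in all libraries. The part of these markers and of the mitochondrial share in the results was not tested. Fresh library 2 stood apart by its scaling factor of 1.22, the highest of the 15, and by 9743 genes at 1 FPKM or more, also the highest. Fresh library 3 lay at the other end, with the lowest factor, 0.843, and the fewest such genes, 8422.

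Levels are given as deposited FPKM values (fragments scaled to gene length and library total) divided by the library's TMM factor (trimmed mean of M-values, a scaling for composition). They compare genes per unit of length and libraries on 1 scale. Mean levels of the 47 genes spanned from 31337 FPKM for BTG4 to 0.0232 for DCP1B. On average over the 15 libraries, 43 genes reached 1 FPKM, 29 reached 10 and 7 reached 100. The median over the 41 tested genes was 22.9 FPKM, against 11.7 over all genes tested.

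**Figure D1:**
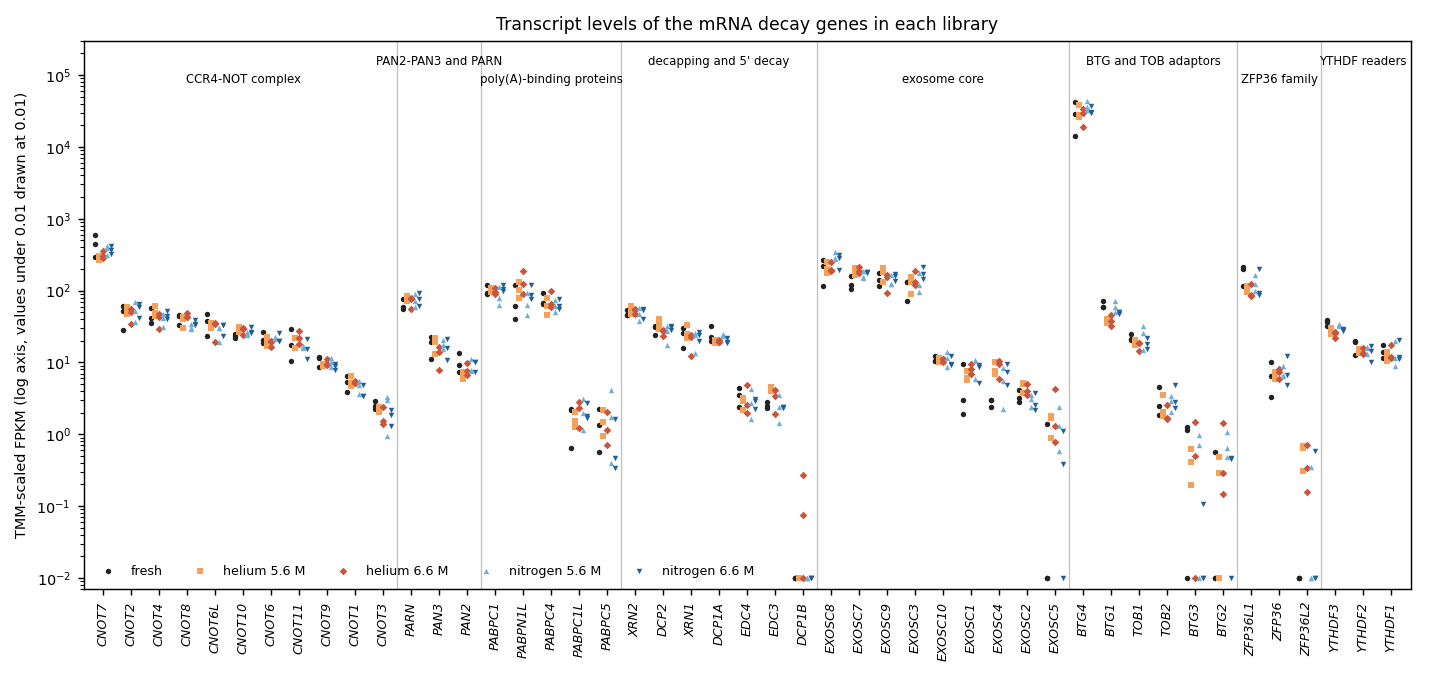
Levels of all 47 genes in each library as TMM-scaled FPKM on a log axis, ordered by role and, within a role, by mean level; colours and markers stand for the 5 groups and values under 0.01 are drawn at 0.01. BTG4 lies far above every other gene in all 15 libraries, and the groups lie on top of each other for most genes.

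BTG4, an adaptor of the CCR4-NOT deadenylase that mouse oocytes need to clear maternal mRNA, dominated the set. The gene (chr15:22105614-22120867, UMD3.1) stood at 28972, 14352 and 42256 FPKM in fresh libraries 1, 2 and 3. It stood at 26263, 28147 and 38723 in helium 5.6 M libraries 3, 4 and 5 and at 29486, 19034 and 33359 in helium 6.6 M libraries 1, 2 and 3. In nitrogen 5.6 M libraries 1 to 3 the levels were 32547, 43553 and 36079, and in those of nitrogen 6.6 M they were 29474, 36831 and 30982. Fresh library 2 was the lowest of the 15, and every vitrified library but nitrogen 5.6 M library 2 lay within the range of the fresh ones.

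BTG4 made up 93.8% of the summed level of the 47 genes. Among genes with a symbol it ranked 1 in every library, both by FPKM and by count, and among all genes in the table it ranked 1 to 3 by FPKM. It took from 1.36% of all counts in fresh library 2 (95% exact binomial interval 1.34 to 1.38%) to 3.14% in nitrogen 5.6 M library 2 (3.12 to 3.17%), where the intervals cover counting error only. The other 46 genes together took 0.407% to 0.527% of counts. Group means of the BTG4 share were 2.08% ± 0.708 in fresh, 2.47% ± 0.395 in helium 5.6 M, 2.22% ± 0.517 in helium 6.6 M, 2.81% ± 0.296 in nitrogen 5.6 M and 2.45% ± 0.232 in nitrogen 6.6 M (SD, n = 3 each). For all vitrified libraries against fresh, the log2 fold change of BTG4 was 0.16 (SE 0.26, 95% interval -0.38 to 0.70, edgeR quasi-likelihood test with Benjamini-Hochberg adjusted p = 0.856), which is smaller than the spread between fresh libraries. Its sign rested on fresh library 2: without that library the log2 fold change was -0.17 (edgeR adjusted p = 0.714), and the mean share in fresh was 2.45% (n = 2).

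**Figure D2:**
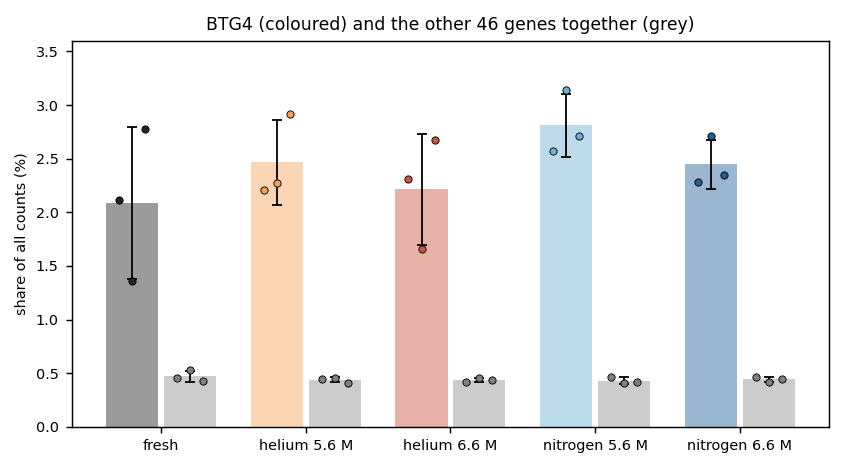
Share of all counts (percent) that fell on BTG4 (coloured bars) and on the other 46 genes together (grey bars) in each group; bars are means, error bars SD over 3 libraries, and points single libraries. BTG4 took 1.36% to 3.14% of counts and the others together 0.407% to 0.527%.

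Among the other adaptors, BTG1 averaged 50.0 ± 12.2 FPKM (SD, n = 15), TOB1 20.3 ± 4.60 and TOB2 2.70 ± 1.01. BTG2 and BTG3, relatives of BTG1 that restrain proliferation in other cells, had 27 and 45 counts over all libraries, at means of 0.423 and 0.496 FPKM. Neither was tested.

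Within CCR4-NOT, the catalytic subunit CNOT7 had the highest level, 358 ± 86.5 FPKM (SD, n = 15), and its close relative CNOT8 stood at 38.0 ± 6.40. The other catalytic pair was lower, with CNOT6L at 30.9 ± 7.47 and CNOT6 at 20.8 ± 2.68. The scaffold CNOT1, on which the complex is built, was at 4.89 ± 0.944, and the structural subunit CNOT3 was the lowest of the complex at 2.14 ± 0.651. CNOT2, which pairs with CNOT3, was at 50.5 ± 11.6, the ubiquitin ligase subunit CNOT4 at 44.1 ± 8.42, CNOT10 at 26.7 ± 3.07, CNOT11 at 18.7 ± 5.23 and CNOT9 at 9.75 ± 1.25. FPKM levels of the subunits of this complex were thus far from equal. Whether cDNA synthesis recovered their transcripts alike was not tested.

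The PAN2-PAN3 deadenylase, which trims long tails, was lower than PARN, with PAN2 at 8.55 ± 2.09 FPKM and PAN3 at 16.4 ± 4.39 against 72.5 ± 11.98 for PARN (SD, n = 15). PARN is known in frog oocytes for its part in cytoplasmic polyadenylation control. Among the poly(A)-binding proteins, PABPC1 was at 98.4 ± 14.95, the oocyte protein PABPN1L at 93.9 ± 37.8 and PABPC4 at 67.4 ± 14.7. PABPC1L, known as the embryonic poly(A)-binding protein, was at 1.92 ± 0.687 and PABPC5 at 1.43 ± 0.998. Cytoplasmic poly(A)-binding genes have near-identical copies in mammalian genomes, how reads shared by copies were counted is not stated, and the split between copies is therefore uncertain.

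The decapping enzyme DCP2 averaged 29.2 ± 5.14 FPKM, its activator DCP1A 21.6 ± 3.45, and the enhancers EDC3 and EDC4 2.97 ± 0.974 and 2.98 ± 0.925 (SD, n = 15). DCP1B had 5 counts in all, and both libraries that held them were of helium 6.6 M. The cytoplasmic exonuclease XRN1 was at 22.9 ± 5.65 and its nuclear relative XRN2 at 50.5 ± 6.60.

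FPKM levels within the exosome were unequal as well. Its ring proteins EXOSC8, EXOSC7 and EXOSC9 stood at 236 ± 59.5, 169 ± 28.4 and 149.6 ± 29.8 FPKM (SD, n = 15), whereas EXOSC4 and EXOSC5 of the same ring stood at 6.46 ± 2.90 and 1.20 ± 1.12. Of the proteins that cap the ring, EXOSC3 was at 138 ± 37.6, EXOSC1 at 7.24 ± 2.63 and EXOSC2 at 3.61 ± 0.965. EXOSC10, the nuclear ribonuclease of the complex, was at 10.9 ± 1.32, with a coefficient of variation of 12.1% over all libraries.

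Among proteins that mark single transcripts for decay, ZFP36L1, which binds AU-rich elements, was at 128 ± 44.7 FPKM and ZFP36 at 7.17 ± 2.16 (SD, n = 15). The span of ZFP36 overlaps that of SAMD4B in the table, but SAMD4B held 42 counts over all libraries against 1504 for ZFP36, and use of the strand in counting is not stated. ZFP36L2, which mouse oocytes use to silence transcription as they finish growth, was at 0.254 ± 0.287 and had 44 counts in all. Its counts were 0 in the 3 fresh libraries and above 0 in the 6 helium libraries, at 0.156 to 0.718 FPKM, but 3 counts in a fresh library would be worth 0.760 to 1.20 FPKM on the same TMM-scaled basis, so a difference was not detectable at this depth. The YTHDF readers, which bind N6-methyladenosine in mRNA, were at 30.1 ± 4.68 for YTHDF3, 14.9 ± 2.55 for YTHDF2 and 13.6 ± 3.57 for YTHDF1.

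Differences between groups were tested for each gene with edgeR's quasi-likelihood test over all 15 libraries, and p-values were adjusted over the 8441 genes tested with a threshold of 0.05. In none of the 8 comparisons did any of the 41 tested genes pass. The comparisons with fresh share the same 3 fresh libraries. The background percentages below are shares of the 8441 genes. For DESeq2 they are shares of the genes to which it gave an adjusted p, and without fresh library 2 they are shares of the 9610 genes, 42 of them mRNA decay genes, that could then be tested.

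The comparison of all 12 vitrified libraries with the 3 fresh ones set the mean of the 4 vitrified groups against fresh. A difference in some of these groups alone can therefore move it. Depth is mixed in here too, as the helium libraries and nitrogen 6.6 M library 3 were deeper than every fresh library. Of all genes tested, 43 passed, or 0.509%, and 0 of the 41 mRNA decay genes did. At an unadjusted p under 0.05 there were 6 of 41 (14.6%), near the 13.6% of all genes at that p, and DESeq2 called 1, EXOSC7, where it called 2.26% of all genes. Fitted differences were above 0 for 17 genes and below 0 for 24, with a median of -0.08 on the log2 scale against -0.03 over all genes. For 37 of the 41 genes the 95% interval lay within a 2-fold change in either direction, and for the other 4 it reached beyond. For 0 of the 41 genes did all vitrified libraries lie to 1 side of all fresh ones, against 2.03% of all genes.

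**Figure D3:**
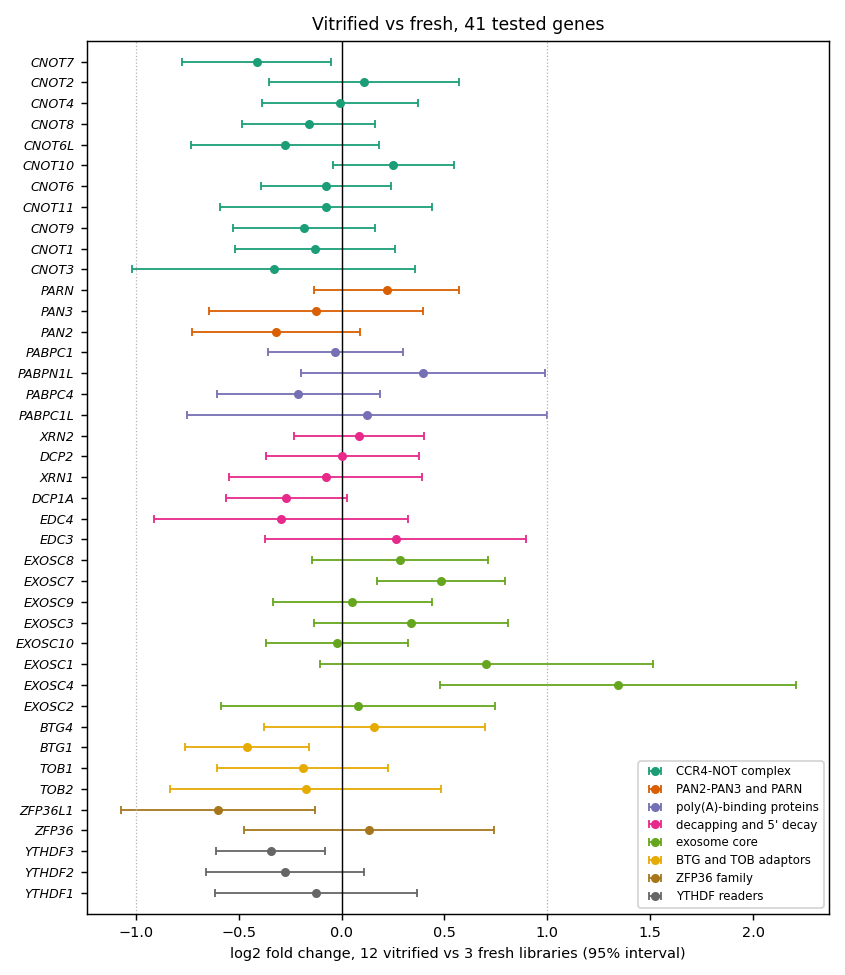
Log2 fold change of all vitrified against fresh libraries for the 41 tested genes, ordered and coloured by role; points are estimates, bars 95% intervals of the edgeR fit, the solid line marks 0 and dotted lines a 2-fold change. Most intervals cross 0, and those of EXOSC4, EXOSC7, BTG1, CNOT7, ZFP36L1 and YTHDF3 do not, although no adjusted p was under 0.05.

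EXOSC4 (chr14:1947198-1949074, UMD3.1) had the smallest p. It held 439 counts over all libraries, from 3 to 79 in a library, so its low levels rest on few counts. Its levels were 2.38, 2.98 and 3.01 FPKM in fresh libraries 1 to 3, 10.2, 7.69 and 6.98 in helium 5.6 M libraries 3 to 5 and 5.93, 10.4 and 9.63 in helium 6.6 M libraries 1 to 3. They were 5.53, 2.25 and 8.27 in nitrogen 5.6 M and 9.66, 4.83 and 7.29 in nitrogen 6.6 M. Nitrogen 5.6 M library 2 was the only vitrified library at or below the fresh ones. Means were 7.38 ± 2.46 FPKM in vitrified (SD, n = 12) and 2.79 ± 0.353 in fresh (n = 3), a log2 fold change of 1.34 (SE 0.41, edgeR adjusted p = 0.152).

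EXOSC7 (chr22:54808946-54835949), another ring protein of the exosome, was at 106, 118 and 159 FPKM in fresh libraries 1 to 3. It was at 163, 183 and 204 in helium 5.6 M and at 174, 209.6 and 187 in helium 6.6 M, all above fresh. In nitrogen 5.6 M it was at 186, 149 and 156, which overlaps fresh, and in nitrogen 6.6 M at 178, 179 and 179, which does not. The log2 fold change of all vitrified against fresh was 0.48 (SE 0.15, edgeR adjusted p = 0.156), and DESeq2 gave an adjusted p of 0.0481.

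BTG1 (chr5:22086071-22088781), an adaptor of the same family as BTG4 that is known for restraining cell division, was the third. It was at 70.9, 58.8 and 60.0 FPKM in fresh libraries 1 to 3. In helium 5.6 M it was at 39.8, 40.7 and 35.0, and in helium 6.6 M at 32.4, 45.96 and 37.9. In nitrogen 5.6 M it was at 72.2, 51.0 and 59.3, and in nitrogen 6.6 M at 50.5, 46.5 and 49.5. All helium and nitrogen 6.6 M values lay below fresh, and those of nitrogen 5.6 M spanned the fresh range. Vitrified and fresh means were 46.7 ± 11.1 (n = 12) and 63.2 ± 6.65 FPKM (n = 3), and the log2 fold change was -0.46 (SE 0.14, edgeR adjusted p = 0.162).

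The other 3 genes at an unadjusted p under 0.05 were lower in mean after vitrification. ZFP36L1 was at 197, 214 and 114 FPKM in fresh libraries 1 to 3 and at 85.3 to 202 in vitrified ones (log2 fold change -0.60, SE 0.23, edgeR adjusted p = 0.238). CNOT7 was at 444, 290.4 and 601 in fresh and at 266 to 415 in vitrified libraries (log2 fold change -0.41, SE 0.17, edgeR adjusted p = 0.288). Fresh libraries 1 and 3 lay inside the vitrified range for ZFP36L1, and fresh library 2 did for CNOT7. YTHDF3 was at 36.8, 32.1 and 39.5 in fresh and at 22.2 to 34.1 in vitrified libraries (log2 fold change -0.34, SE 0.13, edgeR adjusted p = 0.224), with fresh library 2 inside the vitrified range.

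**Figure D4:**
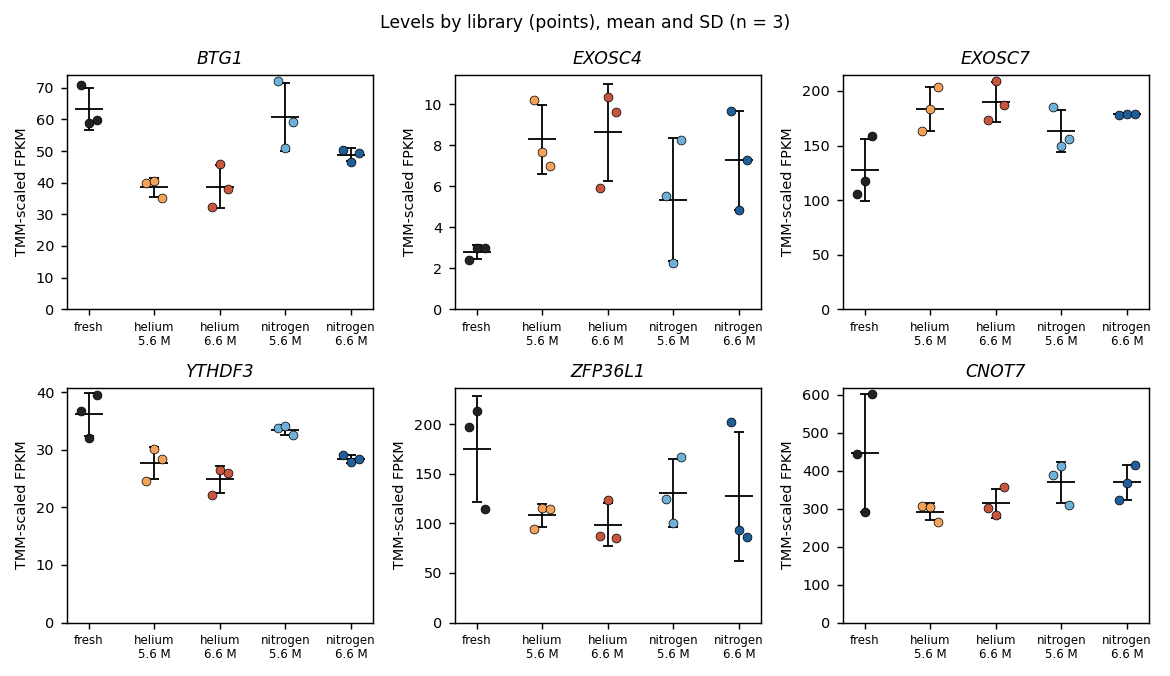
Levels (TMM-scaled FPKM, linear axes from 0) of the 6 genes at an unadjusted p under 0.05 in all vitrified against fresh libraries; points are libraries, the horizontal mark is the mean and the error bar the SD of 3 libraries. BTG1 lies at 32.4 to 45.96 in the helium groups and at 46.5 to 72.2 in the others, and EXOSC4 at 2.38 to 3.01 in fresh.

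By role, 7 of 8 tested exosome genes had a difference above 0, with a median of 0.31 and a range from -0.02 to 1.34 on the log2 scale. In CCR4-NOT 9 of 11 were below 0, with a median of -0.13 and a range from -0.41 to 0.25, and all 3 YTHDF readers were below 0. These counts were the same with library totals alone, with RLE factors and with DESeq2. Without fresh library 2 they were 8 of 8 above 0 for the exosome, 8 of 11 below 0 for CCR4-NOT and 2 of 3 below 0 for the YTHDF readers. Over all genes tested, 46.5% of differences were above 0. Fresh library 2 also touched the calls: without it CNOT7 (edgeR adjusted p = 0.0329) and EXOSC1 (0.0471) passed, where 2.53% of all genes did. EXOSC1 held 460 counts over all libraries, from 4 to 63 in a library, so its differences rest on few counts. The other fresh libraries mattered too. Without fresh library 3 the log2 fold change of CNOT7 shrank from -0.41 to -0.13. That of ZFP36L1 went from -0.60 to -0.82 and that of EXOSC7 from 0.48 to 0.69. Without fresh library 1 that of BTG1 shrank from -0.46 to -0.33.

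Against fresh, helium 5.6 M had 0 of 41 genes past the threshold where 0.474% of all genes passed, and 8 (19.5%) at an unadjusted p under 0.05 where 14.1% of all genes did. The smallest p-values were those of BTG1 with a log2 fold change of -0.71 (SE 0.19, edgeR adjusted p = 0.0873), EXOSC4 with 1.55 (SE 0.45, edgeR adjusted p = 0.119) and EXOSC7 with 0.52 (SE 0.18, edgeR adjusted p = 0.184). In 8 genes (19.5%) all 3 helium 5.6 M libraries lay to 1 side of all fresh ones, which is near the 18.1% of all genes that did so. CNOT10, EDC3, EXOSC4 and EXOSC7 lay above, and BTG1, PAN2, TOB1 and YTHDF3 below. EDC3, the scaffold of decapping complexes, was at 4.44, 4.05 and 4.50 FPKM against 2.79, 2.30 and 2.46 in fresh. EDC3 held 545 counts over all libraries, so its low levels rest on few counts. DESeq2 called BTG1 (adjusted p = 0.0112), where it called 4.19% of all genes. It gave 6 of the 41 genes no adjusted p, EXOSC4 and EDC3 among them. Without fresh library 2 BTG1 (edgeR adjusted p = 0.0386) and CNOT7 (0.0221) passed, where 4.48% of all genes did.

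In helium 6.6 M against fresh, 0 of 41 genes passed where 0.628% of all genes did, and 7 (17.1%) were at an unadjusted p under 0.05 where 15.4% of all genes were. BTG1 was at -0.70 on the log2 scale (SE 0.19, edgeR adjusted p = 0.0816), EXOSC4 at 1.61 (SE 0.45, edgeR adjusted p = 0.1004) and YTHDF3 at -0.54 (SE 0.16, edgeR adjusted p = 0.118). YTHDF3, whose product binds methylated mRNA, was at 22.2, 26.5 and 26.0 FPKM in helium 6.6 M. Libraries of both groups did not overlap for 5 genes (12.2%), against 16.3% of all genes: EXOSC4 and EXOSC7 above fresh, and BTG1, TOB1 and YTHDF3 below. DESeq2 called BTG1, EXOSC7 and YTHDF3 (adjusted p = 0.0136, 0.0426 and 0.0171), where it called 4.54% of all genes. It gave 6 of the 41 genes no adjusted p, EXOSC4 and EXOSC1 among them. Without fresh library 2, BTG1, CNOT7, EXOSC1, PABPN1L and YTHDF3 passed (edgeR adjusted p = 0.0211 to 0.0355), which is 5 of 42 where 6.22% of all genes passed. Among them EXOSC1 rested on few counts, down to 4 in a library. With the replicate number as a block, 0 of the 41 genes passed, and 0.0355% of all genes did. PABPN1L was at 125, 185 and 88.3 FPKM in helium 6.6 M and at 39.7, 118 and 60.2 in fresh, with its highest value in library 2 of both groups. These libraries also had the highest sums of their group for oocyte markers and for cumulus and granulosa markers, and the part of either was not tested.

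In nitrogen 5.6 M against fresh, 0 of 41 genes passed where 0.0118% of all genes did, and 1 (2.44%) was at an unadjusted p under 0.05 where 6.74% of all genes were. That gene was EXOSC8, at 284, 341 and 276 FPKM against 266, 118 and 216 in fresh (log2 fold change 0.59, SE 0.25, edgeR adjusted p = 0.702). It was also the single gene of the 41 whose libraries did not overlap between both groups, against 9.26% of all genes. CNOT8, at 30.1, 29.5 and 33.96 FPKM against 32.9, 44.0 and 46.3, gave -0.40 (SE 0.20, edgeR adjusted p = 0.727). EXOSC1, at 10.5, 10.6 and 5.88 FPKM against 3.01, 9.60 and 1.90, gave 0.91 (SE 0.47, edgeR adjusted p = 0.734). Without fresh library 2, the highest of the fresh values, the log2 fold change of EXOSC1 was 1.93 (edgeR adjusted p = 0.346). Counts of EXOSC1 went down to 4 in a library, so this value rests on few counts.

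For nitrogen 6.6 M against fresh, 0 of 41 genes passed where 0.0474% of all genes did, and 4 (9.76%) were at an unadjusted p under 0.05 where 8.23% of all genes were. EXOSC4 gave 1.34 (SE 0.48, edgeR adjusted p = 0.411) and EXOSC7 0.48 (SE 0.18, edgeR adjusted p = 0.452). EXOSC3, a cap protein of the exosome, was at 169, 144 and 211 FPKM against 72.4, 133 and 133 in fresh, and gave 0.62 (SE 0.28, edgeR adjusted p = 0.568). In 7 genes (17.1%) the libraries of both groups did not overlap, against 9.3% of all genes: CNOT10, EXOSC3, EXOSC4 and EXOSC7 above fresh, and BTG1, CNOT3 and YTHDF3 below. DESeq2 called 0 of the 41 genes in either nitrogen comparison, where it gave 7 and 9 of them no adjusted p and called 0.619% and 1.65% of all genes. Nitrogen 5.6 M and 2 of the nitrogen 6.6 M libraries were of the same depth as fresh.

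The comparison of the 6 helium with the 6 nitrogen libraries set the coolants side by side. Depth went with coolant here too, as only nitrogen 6.6 M library 3 was as deep as the helium libraries. Of all genes tested 0.663% passed, and 0 of the 41 genes did, with 6 (14.6%) at an unadjusted p under 0.05 where 16% of all genes were. BTG1 had the smallest p. It ranged from 32.4 to 45.96 FPKM in helium, with a mean of 38.6 ± 4.71, and from 46.5 to 72.2 in nitrogen, with a mean of 54.8 ± 9.50 (SD, n = 6 each). It was the 1 gene of the 41 whose libraries did not overlap between coolants, against 3.36% of all genes. The log2 fold change was -0.49 (SE 0.13, edgeR adjusted p = 0.0765). The call depended on the setting: DESeq2 gave an adjusted p of 0.0127, edgeR on these 4 groups alone 0.0349, and edgeR without fresh library 2 0.0440, where 3.95%, 3.07% and 2.43% of all genes passed. With depth class as a term, a fit that rests on nitrogen 6.6 M library 3 (49.5 FPKM) as the 1 deep nitrogen library, the difference was -0.52 (edgeR adjusted p = 0.359) and did not pass. The part of depth in the difference was not tested beyond that.

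EDC3 and EXOSC2 followed, both higher in mean with helium. EDC3 ranged from 1.90 to 4.50 FPKM in helium and from 1.45 to 3.53 in nitrogen, with a log2 fold change of 0.60 (SE 0.23, edgeR adjusted p = 0.224). EXOSC2 ranged from 3.55 to 5.22 in helium and from 2.20 to 3.71 in nitrogen, with 0.63 (SE 0.25, edgeR adjusted p = 0.226). Both overlapped between coolants. Their low levels rest on few counts, from 6 to 98 in a library for EDC3 and from 5 to 58 for EXOSC2. DESeq2 gave 4 of the 41 genes no adjusted p in this comparison. All 4 tested BTG and TOB adaptors were below 0, where 53.4% of all genes were above 0, and so they were under the other scalings. Their median was -0.38, and -0.28 with library totals alone.

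For 6.6 M against 5.6 M of cryoprotective agent, over 6 libraries each, 0 of 41 genes and 0% of all genes passed. None of the 41 was at an unadjusted p under 0.05, against 2.24% of all genes, and DESeq2 called 0. All 41 intervals lay within a 2-fold change, and 30 within 1.5-fold. The smallest p-values belonged to PABPN1L (log2 fold change 0.44, SE 0.24), TOB1 (-0.30, SE 0.17) and YTHDF3 (-0.19, SE 0.11), each with an edgeR adjusted p of 0.9999. PABPN1L ranged from 77.5 to 185 FPKM at 6.6 M and from 45.3 to 131 at 5.6 M, TOB1 from 14.6 to 21.8 and from 15.05 to 32.1, and YTHDF3 from 22.2 to 29.1 and from 24.6 to 34.1. The libraries of both concentrations overlapped for all 41 genes, and 0.0711% of all genes had libraries apart.

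Whether the concentration acted differently in the coolants was tested as an interaction. Here too 0 of 41 genes and 0% of all genes passed, and 0 of the 41 were at an unadjusted p under 0.05, against 2.1% of all genes. DESeq2 called 0 as well. DCP2 gave -0.58 (SE 0.31), CNOT4 -0.53 (SE 0.32) and EXOSC9 -0.52 (SE 0.33), each with an edgeR adjusted p of 0.9996. DCP2 was at 28.9, 32.7 and 40.7 FPKM in helium 5.6 M and 28.5, 23.5 and 27.7 in helium 6.6 M. In nitrogen 5.6 M it was at 32.4, 27.7 and 17.7, and in nitrogen 6.6 M at 28.2, 31.6 and 31.4. The interaction intervals were wide, and only 23 of 41 lay within a 2-fold change.

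Taking each gene's log2 level (with 0.1 FPKM added), the median share of its variance that lay between the 5 groups was 30.5% over the 41 genes and 30.4% over all genes tested. With 5 groups of 3 libraries, a sizeable share lies between groups even where they do not differ, so these medians do not measure a group effect. It was highest for BTG1 with 80.8%, YTHDF3 with 80.7%, EXOSC7 with 67.5% and EXOSC4 with 64.8%, and lowest for EXOSC10 with 5.12%. Within groups, the median SD was 0.31 on the log2 scale for the 41 genes and 0.36 for all genes tested.

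Genes that work beside these were taken from 5 lists of 100 symbols, of which 87 were in the table and 70 were tested. They were 20 tested decapping activators and P-body genes, 12 exosome ribonucleases and cofactors, 12 tail polymerases, uridylyltransferases and further deadenylases, 12 adaptors that bring deadenylases to mRNA, and 14 writers, erasers and other readers of N6-methyladenosine. In each of the 8 comparisons, 0 of the 70 passed in either direction. For all vitrified libraries against fresh, 5 of 70 were at an unadjusted p under 0.05, where 13.6% of all genes were, and the median log2 fold change was -0.02, against -0.03 over all genes. The tail polymerase list had 4 of 12 at that p and a median of -0.32, with 2 of 12 above 0, where 46.5% of all genes were above 0. NOCT, which the list held as a relative of the deadenylases, had the smallest p of the 70 (log2 fold change -0.47, edgeR adjusted p = 0.178). For helium against nitrogen the smallest was that of LSM5, a subunit of the ring that activates decapping, at -0.94 (edgeR adjusted p = 0.0600).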

How the data were processed

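RNA sequencing of 15 bovine oocyte libraries was deposited as 1 table of 24616 Ensembl genes on UMD3.1. Per the submitters' processing notes, HISAT2 2.0.4 and StringTie 1.3.0 were used, with no role given. Per the labels' protocols, cDNA came from single cells with SMARTer and SMART-Seq kits, and libraries used Ovation kits. The authors deposited whole-number counts per gene and library without scaling, and FPKM values that equal the count over gene length and library total within 0.1% for 100% of values above 0. Aligner settings, strand and the counting of reads with several matches are not stated. No genome sequence was used.

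Groups and replicate numbers came from the labels. Genes matching a symbol pattern were described, and the members, lists and tests were chosen with earlier results of these data known. For every comparison the 3 genes with the smallest p were to be named with their statistics, besides any that passed; BTG4, and the other genes at an unadjusted p under 0.05 for all vitrified libraries against fresh, were added after their values were seen. Tests used edgeR 4.0.16 in R 4.3.3: filterByExpr (8441 genes), TMM factors (0.843 to 1.22), 1 robust quasi-likelihood fit of 5 groups without a replicate block, and Benjamini-Hochberg adjustment at 0.05. The scripts were tested on simulated data. Alternatives were DESeq2 1.42.0, other scalings, no filter, only the groups compared, a replicate block, depth class (4000000 counts as the bound) and leaving out each library. As a check of pairing, the deviations of libraries with the same number correlated at r = 0.147, 0.306 and 0.227 in fresh and helium 6.6 M. Only there were all 3 pairs above 0.1, but r ran from -0.355 to 0.431 over other pairs. The labels do not say that the number pairs libraries, and pairing was not established. No library was a copy of another (chi-square per degree of freedom within groups at least 6.23). SDs are between libraries, and totals of 1601519 to 8569618 counts limit the precision of low genes.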

Additional observations from a re-analysis of the deposited data

How the results depend on the processing

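In all 8 comparisons 0 of the tested genes passed in the edgeR fit of all libraries. This count stayed at 0 with RLE factors, with library totals alone and with depth class as a term. With the replicate block it was 0 for helium 6.6 M and both nitrogen groups against fresh. Helium 5.6 M libraries 4 and 5 share their numbers with no other library. The block therefore leaves that group on library 3 alone and cannot judge comparisons that use it. With DESeq2 the count was 1 for all vitrified libraries against fresh (EXOSC7) and 1 for helium 5.6 M (BTG1). It was 3 for helium 6.6 M (BTG1, EXOSC7 and YTHDF3) and 1 for helium against nitrogen (BTG1). Without the filter on low counts, every gene with a count was tested. The count was then 3 for helium 6.6 M (EXOSC4, PABPN1L and ZFP36L1), where 239 of all genes passed. For helium against nitrogen it was 1 (PABPN1L), where 344 of all genes passed. With only the groups compared it was 1 for helium against nitrogen (BTG1). Leaving out each library in turn gave 0 to 2 for all vitrified libraries, 0 to 2 for helium 5.6 M, 0 to 5 for helium 6.6 M and 0 to 1 for helium against nitrogen, each highest without fresh library 2, and 0 in the other comparisons. The cause was not tested. Over these alternatives 28 differences of single genes were followed. They were the 3 with the smallest p in each comparison, and those added for all vitrified libraries against fresh. Among the 28, 1 changed sign, that of BTG4 for all vitrified libraries against fresh. It was -0.17 without fresh library 2 and 0.56 without fresh library 3, the range over libraries left out. Of the other values of the 28, 601 kept their sign and did not pass the threshold, and 12 moved past it. The 601 include values to which DESeq2 gave no adjusted p, such as those of EXOSC4 in both helium groups against fresh. Passes outside the 28, such as those of CNOT7 and PABPN1L in helium 6.6 M without fresh library 2, are not among the 12.

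Counts over all genes moved more. Against the 43, 40, 53, 1, 4 and 56 genes given above (all vitrified, both helium and both nitrogen groups against fresh, the lower concentration first, then helium against nitrogen), DESeq2 called 191, 244, 279, 32, 69 and 269. Without the filter the counts were 142, 160, 239, 26, 60 and 344, with 3 for concentration and 2 for its interaction with coolant. With the replicate block they were 3, 1 and 1 for helium 6.6 M and both nitrogen groups against fresh. With depth class they were 1, 0, 0, 2, 1 and 13. Only the groups compared gave 5, 2, 1, 1 and 308 from helium 5.6 M on. Library totals alone gave 33, 6, 12 and 27 for helium 6.6 M, both nitrogen groups and helium against nitrogen. With libraries under 4000000 counts only, nitrogen 6.6 M had 1. Leaving out a library gave 5 to 243, 1 to 431, 3 to 598, 1 to 3, 1 to 23 and 15 to 234. The depth of the fresh libraries limits genes such as ZFP36L2, and depth class rests on nitrogen 6.6 M library 3.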

Other observations

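Levels of the genes that work beside the mRNA decay set also spanned a wide range. Among decapping activators, LSM7 averaged 1025 FPKM and LSM1 228, against 6.24 for the helicase DDX6 and 4.58 for PATL1. The cap-binding protein EIF4E averaged 963 FPKM over the 15 libraries, with a range from 350.6 to 1946. Among tail polymerases, PAPOLG averaged 587 and PAPOLA 138, and the cytoplasmic polymerase PAPD4 67.4. Of the exosome's own ribonucleases and cofactors, MPHOSPH6 averaged 372, the catalytic subunit DIS3 15.4 and the cytoplasmic helicase SKIV2L 0.229. The adaptors that bring deadenylases to mRNA ran from 489 for PAIP1, a partner of the poly(A)-binding protein, to 0 in every library for NANOS2. IGF2BP3, a reader of N6-methyladenosine, averaged 243 FPKM within 208 to 308, whereas its relative IGF2BP1 averaged 0.0745.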
